A study of Arabidopsis thaliana with 10 samples.

Results

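The genes described here are 5 jasmonate-related genes of Arabidopsis thaliana: the defensins PDF1.2 and PDF1.2b, the thionin THI2.1, and the jasmonate enzymes OPCL1 and JMT. They were chosen by gene name as the probe sets annotated with 1 of these genes alone. Each gene had 1 such probe set, which makes 5 of 22746 tested (13513 of them carry 1 gene). Transcript levels were measured in whole rosettes on single-colour Affymetrix arrays, which carry a set of oligonucleotide probes (a probe set) for each transcript, in 3 genotypes. Col 0 is the wild type (3 arrays), abi4-102 is labelled as aba (abscisic acid) insensitive 4, a mutant of an AP2-type transcription factor (3 arrays), and vtc1 is labelled as vitamin C defective 1, a mutant with low ascorbate (4 arrays). All plants were 42 days old and were grown under the same short-day conditions with no further treatment given in the labels. Samples are labelled as biological replicates, without stating the number of plants in each, and each mutant is represented by a single line. The p-values therefore reflect only how much these samples varied.

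Jasmonates are lipid-derived hormones. Their synthesis starts in the plastid and ends in the peroxisome, where OPCL1 attaches coenzyme A to a cyclopentanone fatty acid so that beta-oxidation can shorten it to jasmonic acid. JMT converts jasmonic acid to the volatile methyl ester, and other enzymes conjugate or hydroxylate it. In leaves the response divides into a wound branch driven by MYC transcription factors and a defence branch in which jasmonate and ethylene act together through EIN3 and ERF-type factors. PDF1.2, which encodes a secreted antifungal defensin, is the usual marker of the defence branch. THI2.1 encodes a thionin, a small cysteine-rich antimicrobial peptide that is induced by methyl jasmonate and is known mainly from flowers and seedlings. In a whole rosette, fewer cells of a type and less RNA per cell cannot be told apart.

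Median intensity was 44.6 to 45.6 on the vtc1 arrays and 42.6 to 44.4 on the others, and the mean log2 intensity of the hybridization spike-in controls was 8.42 to 8.72 on the vtc1 arrays and 8.75 to 8.87 on the others, so neither measure overlapped. Arrays of the same genotype correlated at 0.997 to 0.999 over all tested probe sets. The level of absent transcripts was taken on each array as the highest of 27 Bacillus control probe sets and was 15.2 to 19.8 (called the control level below), and 61.8% of probe sets lay above it on every array. Of the leaf photosynthesis markers 5 of 7 listed had a probe set of their own, with mean intensities of 2606 to 9010, whereas the root marker PYK10 lay below control level on every array. RCA, SBPASE and PRK were called lower in both mutants, with log2 changes of -0.16, -0.51 and -0.22 in vtc1 and -0.36, -0.28 and -0.67 in abi4-102. In vtc1 the call of RCA was lost without any 1 of the 3 Col 0 arrays (-0.17 to -0.16) or without vtc1 replicate 2 (-0.15) or 3 (-0.16), that of PRK without Col 0 replicate 1 or 2 (-0.21 each), and both were lost under quantile normalization (-0.12 and -0.16) and with a replicate block (-0.17 and -0.21) and turned above 0 with spike-in scaling (0.07 and 0.02). LHCB4.1 (log2 changes of -0.04 in vtc1 and -0.03 in abi4-102) and LHCB4.2 (0.07 and 0.10) were not called. The root marker EXPA7 fell from 27.7 ± 2.53 (SD, n = 3) in Col 0 to 20.7 ± 3.35 (n = 3) in abi4-102 and 21.7 ± 1.85 (n = 4) in vtc1, a fall in vtc1 not called without Col 0 replicate 2 (log2 change -0.28) or under spike-in scaling (-0.11). The guard cell marker FAMA was at 48.4 ± 1.33 in Col 0, 45.8 ± 2.25 in abi4-102 and 43.9 ± 1.04 in vtc1 and was not called. Its vtc1 arrays nevertheless all lay below Col 0, as for 21.7% of all probe sets. FAMA was called lower in vtc1 than in Col 0 with a pseudocount of 16 (log2 change -0.11), quantile normalization (-0.19) and array medians subtracted (-0.19), and stood at 0.09, not called, with spike-in scaling. The listed flower and phloem markers were not matched by name in the annotation used, which leaves 8730 tested probe sets unnamed. As a measure of RNA integrity, the GAPDH control read higher at its 3' than at its 5' end by 0.84 ± 0.19 (log2, SD) in Col 0, by 0.62 ± 0.09 in abi4-102 and by 0.56 ± 0.05 in vtc1. The Actin control did so by more, at 1.93 ± 0.21 in Col 0, 1.73 ± 0.06 in abi4-102 and 1.79 ± 0.08 in vtc1. The part of these differences in the results below was not tested.

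Both defensin transcripts were highest in abi4-102. PDF1.2 (AT5G44420, probe set 249052_at) read 110.4, 90.6 and 126 on the Col 0 arrays, 248, 236 and 235 on the abi4-102 arrays, and 126, 131, 107 and 115 on the vtc1 arrays. Every abi4-102 array lay above every Col 0 array, as for 22.9% of all probe sets. Every abi4-102 array also lay above every vtc1 array, as for 23.0%, while Col 0 and vtc1 overlapped. PDF1.2 rose 2.21-fold in abi4-102 over Col 0, from 109 ± 17.5 (SD, n = 3) to 239.8 ± 6.98 (n = 3), with a log2 change of 1.14 ± 0.10 (SE; limma adjusted p = 3.1e-07). The size of that change exceeded those of 99.0% of all probe sets. In vtc1 PDF1.2 was at 119.7 ± 11 (n = 4), a log2 change from Col 0 of 0.14 that was not called (limma adjusted p = 0.26), with a 95% interval of -0.06 to 0.35. That change was 0.02 without Col 0 replicate 2 and 0.25 without Col 0 replicate 3, neither called, the latter at a limma adjusted p that rounds to 0.05. With scaling on the hybridization spike-in controls it was called (0.38, limma adjusted p = 0.00088). Between the mutants PDF1.2 was 2.0-fold lower in vtc1 than in abi4-102 (limma adjusted p = 7e-07).

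PDF1.2b encodes a close relative of PDF1.2 (AT2G26020, probe set 257365_x_at). Its readings were 158, 181 and 156 in Col 0, 305, 306 and 338 in abi4-102, and 199.8, 219, 209.7 and 198 in vtc1. These 3 groups did not overlap, as for 41.9% of all probe sets in vtc1 versus Col 0 (20.3% higher), 43.5% in abi4-102 versus Col 0 (22.9% higher) and 42.0% in vtc1 versus abi4-102 (23.0% lower), with Col 0 lowest, vtc1 between and abi4-102 highest. PDF1.2b rose 1.92-fold in abi4-102 (165 ± 14.2 to 316 ± 18.8, limma adjusted p = 9.5e-08) and 1.25-fold in vtc1 (to 207 ± 9.73, limma adjusted p = 0.0014). In vtc1 it was lower than in abi4-102 by a log2 difference of -0.61 ± 0.07 (limma adjusted p = 4.8e-06). Whether PDF1.2 and PDF1.2b differed from each other in their response to vtc1 was not tested.

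**Figure D1:**
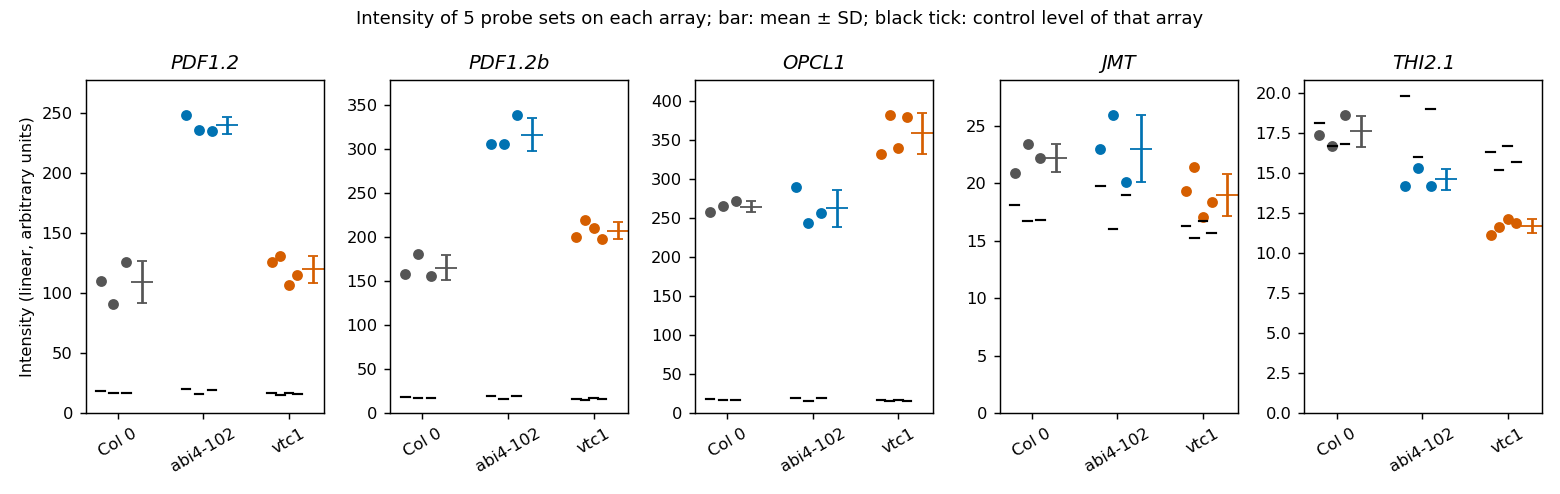
Intensity (linear, arbitrary units, axes from 0) of the 5 probe sets on each array, in panels by gene and columns by genotype. Points are arrays (3 Col 0, 3 abi4-102, 4 vtc1), bars are mean ± SD, and black ticks are the control level of the same array. The abi4-102 points of PDF1.2 (235 to 248) and PDF1.2b (305 to 338) lie above all others, the vtc1 points of OPCL1 (332 to 381) lie above all others, and THI2.1 exceeds the tick only on Col 0 replicate 3.

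The letters _x_at at the end of the PDF1.2b identifier mark a probe set, 1 of 126 such among those tested, whose probes can take up related transcripts. Its reading may therefore include PDF1.2 or other class 1 defensins. In gene order PDF1.2 stands directly beside PDF1.2c, and PDF1.2b directly beside PDF1.3, and no separate probe set was matched by name to PDF1.2c or PDF1.3. Over the 10 arrays the log2 values of PDF1.2 and PDF1.2b correlated at r = 0.89, across arrays that share the genotype differences. Within genotypes, the deviations of PDF1.2 and PDF1.2b from their genotype means had the same sign on 3 of 10 arrays. On Col 0 replicate 2, for example, PDF1.2 was below its genotype mean by a log2 deviation of -0.25 and PDF1.2b was above its own by 0.14. Deviations within a genotype must cancel out, so their signs are not independent. Whether the PDF1.2 and PDF1.2b probe sets read shared transcripts was not tested.

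Of the enzyme genes, OPCL1 was highest in vtc1. OPCL1 (AT1G20510, probe set 259518_at) read 257, 265 and 271 in Col 0, 289, 243 and 256 in abi4-102, and 332, 381, 339 and 379.6 in vtc1. All vtc1 arrays lay above the other 6, as for 20.3% of all probe sets against Col 0 and 19.0% against abi4-102, and abi4-102 overlapped Col 0. OPCL1 rose 1.35-fold in vtc1 over Col 0, from 264 ± 7.06 (n = 3) to 358 ± 26 (n = 4), a log2 change of 0.43 ± 0.07 (limma adjusted p = 0.00017), and the size of that change exceeded those of 86.8% of all probe sets. It was 1.36-fold higher in vtc1 than in abi4-102, where it stood at 262 ± 23.6 (n = 3; limma adjusted p = 0.00013). The log2 change of abi4-102 from Col 0 was -0.01 (95% interval -0.18 to 0.15; limma adjusted p = 0.92), so a change larger than 1.13-fold either way lies outside the interval.

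JMT was dim throughout. Its probe set (AT1G19640, 261150_at) read 20.9, 23.4 and 22.2 in Col 0, 23, 25.9 and 20.1 in abi4-102, and 19.3, 21.4, 17.1 and 18.4 in vtc1. These readings were between 1.02 and 1.62 times the control level of the same array, and the genotypes overlapped in each comparison. Neither mutant was called against Col 0, with log2 changes of -0.21 in vtc1 (95% interval -0.39 to -0.03; limma adjusted p = 0.067) and 0.05 in abi4-102 (95% interval -0.15 to 0.24; limma adjusted p = 0.75). The vtc1 change was called without vtc1 replicate 2 (log2 change -0.27) and without abi4-102 replicate 2 or 3 (-0.21 each). JMT was called lower in vtc1 than in abi4-102 (log2 difference -0.26 ± 0.09, limma adjusted p = 0.026), a call lost without abi4-102 replicate 1 (-0.25), abi4-102 replicate 2 (-0.17), vtc1 replicate 3 (-0.21) or vtc1 replicate 4 (-0.24).

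The thionin THI2.1 did not exceed the control level on 9 of 10 arrays. Its probe set (AT1G72260, 259802_at) read 17.4, 16.7 and 18.6 in Col 0, 14.2, 15.3 and 14.2 in abi4-102, and 11.1, 11.6, 12.1 and 11.9 in vtc1. Only Col 0 replicate 3 exceeded the control level of its array, at 18.6 against 16.8. The readings of the 3 genotypes did not overlap (readings below Col 0 without overlap made up 21.7% of all probe sets in vtc1 and 20.6% in abi4-102), and all 3 differences passed the test (limma adjusted p = 2.1e-06 for vtc1 and 0.0057 for abi4-102 against Col 0, and 0.00097 between the mutants). These are differences between readings at or below the level of absent transcripts, so no fold and no order of transcript levels is given.

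**Figure D2:**
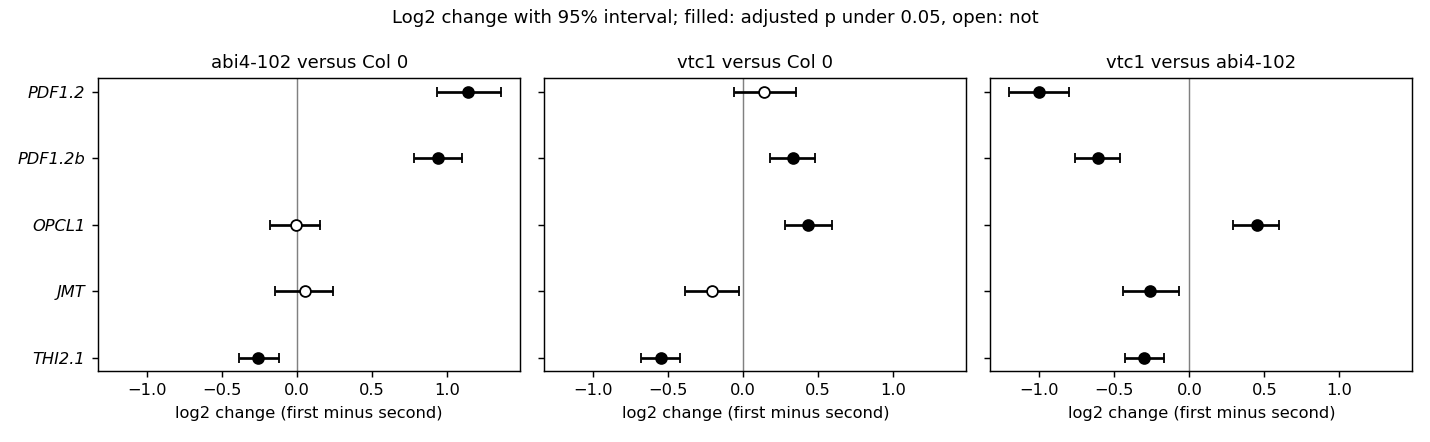
Log2 change (first genotype minus second) of the 5 genes in the 3 comparisons, with the 95% interval of the fit. Filled points passed the adjusted p threshold of 0.05 and open points did not. PDF1.2 and PDF1.2b stand at 1.14 and 0.94 in abi4-102, and OPCL1 stands at 0.43 in vtc1.

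Counted by comparison, 3 of the 5 genes were called in vtc1 versus Col 0 (PDF1.2b and OPCL1 higher, THI2.1 lower), against 36.6% of all probe sets (18.1% higher, 18.5% lower). In abi4-102 versus Col 0, 3 of 5 were called (PDF1.2 and PDF1.2b higher, THI2.1 lower), against 34.9% (18.8% higher, 16% lower). Under the filter on low values, which drops THI2.1, the shares called were larger, at 52.9% in vtc1 and 52.1% in abi4-102 against Col 0. In vtc1 versus abi4-102 all 5 were called, 1 higher (OPCL1) and 4 lower, against 39.0% (17.8% higher, 21.2% lower). Of those 4, THI2.1 lay below control level in both mutants, and JMT was dim with overlapping arrays and a call that several settings ended. THI2.1 is counted in all 3 comparisons on readings that give no order of transcript levels. PDF1.2 and PDF1.2b are counted separately, although the PDF1.2b probe set may also read PDF1.2. The median log2 change of the 5 genes was 0.14, 0.05 and -0.30 in these comparisons, beside -0.03, -0.01 and -0.02 over all probe sets. These medians are the values of PDF1.2 (not called), JMT (not called) and THI2.1 in turn. The last has both genotypes below control level, so it gives no shift of the 5 genes. Both contrasts with Col 0 share the same 3 wild-type arrays. With scaling on the hybridization spike-in controls, the median over all probe sets moved to a log2 change of 0.20 in vtc1 versus Col 0, to 0.17 in vtc1 versus abi4-102 and to 0.02 in abi4-102 versus Col 0. Under that scaling PDF1.2 was called higher in vtc1 than in Col 0 (log2 change 0.38, or 0.18 above the median of all probe sets). Also under it, THI2.1 was not called in abi4-102 versus Col 0 (-0.22) or between the mutants (-0.11), nor JMT between the mutants (-0.06).

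Outside these 5 genes, 76 further genes of jasmonate synthesis, turnover, signalling, defence and the defensin and thionin families were listed, of which 17 had a probe set of their own. Among these, 8 were called higher, 2 lower and 7 not called in abi4-102 versus Col 0, beside 34.9% of all probe sets called. In vtc1 versus Col 0 the counts were likewise 8, 2 and 7, beside 36.6% called. In vtc1 versus abi4-102, 4 were higher, 6 lower and 7 not called, beside 39.0% called. DGL, AT3G11180, PDF1.1, PDF2.1, PDF2.5 and PDF2.6 lay below control level on every array, so calls on them give no change of transcript. The counts include such calls for AT3G11180 (higher in abi4-102 than in Col 0) and PDF2.1 (lower in vtc1 than in either other genotype). The lipoxygenases, AOS, the AOC genes, OPR3, COI1, MYC2, the JAZ genes, the VSP genes, ORA59 and ERF1 were not matched by name to a probe set of their own, and may be among the unnamed probe sets, so the counts do not speak for the pathway as a whole.

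In jasmonate synthesis, 3 of 19 listed genes were measured. AIM1, a multifunctional enzyme of peroxisomal beta-oxidation, which acts after OPCL1, fell in abi4-102 from 713 ± 33.6 to 529 ± 29.2 (1.35-fold, limma adjusted p = 0.00019). It was higher in vtc1, at 811 ± 48, than in abi4-102 (1.53-fold, limma adjusted p = 2.7e-06) and was called higher than in Col 0 with overlapping arrays (log2 change 0.18, limma adjusted p = 0.039). That last call was lost without Col 0 replicate 1 (0.17) or 2 (0.16), without vtc1 replicate 1 (0.17), 2 (0.18) or 4 (0.16), with subtraction of array medians (0.13) and with a replicate block (0.16). Thus AIM1 and OPCL1 were both higher in vtc1 than in abi4-102, while against Col 0 AIM1 fell in abi4-102 and OPCL1 was not called there. The lipase-like gene DGL lay below control level on all arrays.

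Of 12 genes listed with jasmonate conjugation and turnover, 5 were measured, and in abi4-102 4 of them were called higher, against 18.8% of all probe sets, and JMT was not called. AT5G05600 rose 2.39-fold, from 136 ± 8.49 to 327 ± 23.6 (limma adjusted p = 2.2e-09). AT2G38240 rose 2.39-fold, from 44.1 ± 5.51 to 106 ± 8.99 (limma adjusted p = 3.2e-08), and JRG21, which the gene table names as jasmonate-regulated, rose 2.08-fold from 21.2 ± 3.86 to 44.8 ± 4.61 (limma adjusted p = 1.6e-06). AT3G11180 was called with all arrays below control level, so no fold is given, and its call was lost without Col 0 replicate 1 (log2 change 0.22) or 2 (0.24) and without abi4-102 replicate 1 (0.24) or 2 (0.21). In vtc1 JRG21 rose 1.77-fold to 37.8 ± 3.07, AT2G38240 1.22-fold and AT5G05600 1.19-fold. The call of AT2G38240 in vtc1 was lost without Col 0 replicate 2 (log2 change 0.19) and under quantile normalization (0.24). AT5G05600 and AT2G38240 were lower in vtc1 than in abi4-102 (log2 differences -1.01 and -0.97), and JRG21 was not called between the mutants (-0.24, limma adjusted p = 0.079), although it was without Col 0 replicate 1 or 3 (-0.24 each), in the fit of only the mutants (-0.24) and with array medians subtracted (-0.28).

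In jasmonate signalling, 2 of 20 listed genes were measured, both bHLH transcription factors of the MYC branch. MYC3 rose in both mutants, 1.33-fold in abi4-102 and 1.28-fold in vtc1, from 86.6 ± 4.24 to 116 ± 2.08 and 111 ± 11.5. MYC4 rose 1.5-fold in vtc1, from 26.5 ± 1.36 to 40.5 ± 5.52 (limma adjusted p = 0.00013), and was not called in abi4-102 at 30.3 ± 3.67 (log2 change 0.18). MYC4 was higher in vtc1 than in abi4-102 (limma adjusted p = 0.003). EIN3, the ethylene-response factor upstream of the defensin branch, rose 1.21-fold in vtc1, from 435 ± 19.5 to 526 ± 17.8 (limma adjusted p = 0.0013). In abi4-102 EIN3 stood at 437 ± 4.26 with a log2 change of 0.01 (limma adjusted p = 0.95). Any link between EIN3 and the PDF1.2 readings was not tested.

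Among the other defensins and thionins, 8 of 10 listed genes were measured, of which PDF1.1, PDF2.1, PDF2.5 and PDF2.6 lay below control level on every array. The remaining 4 were all called in abi4-102, 3 higher and 1 lower, beside 52.1% of probe sets called in that comparison under the filter on low values. PDF1.4, a class 1 defensin, rose 2.84-fold from 39.4 ± 5.33 to 113 ± 5.28 (limma adjusted p = 1.3e-08), PDF2.2 rose 2.2-fold from 976 ± 35.9 to 2151 ± 106 (1.3e-09) and the thionin THI2.2 rose 1.95-fold from 48.6 ± 5.76 to 95.4 ± 9.46 (4.4e-07). PDF2.3 fell 1.61-fold, from 872 ± 13.7 to 542 ± 23.3 (limma adjusted p = 3.9e-07). PDF2.2 and PDF2.3, which moved in opposite directions, stand in the same stretch of defensin genes, with 2 protein-coding genes between them. In vtc1 PDF1.4 rose 1.32-fold to 52.3 ± 6.15, with arrays (from 44.3) that overlapped those of Col 0 (up to 45.6). There PDF2.2 fell 1.15-fold to 849 ± 17.4, whereas PDF2.3 (877 ± 29.6) and THI2.2 (50 ± 1.86) were not called. The fall of PDF2.2 in vtc1 was not called without Col 0 replicate 2 (log2 change -0.18) and turned to 0.04 under spike-in scaling, under which PDF2.3 and THI2.2 were called higher (0.24 and 0.28). Between the mutants PDF1.4, PDF2.2 and THI2.2 were lower in vtc1 (log2 differences -1.11, -1.34 and -0.91), and PDF2.3 was higher (0.69), each at a limma adjusted p of 4e-07 or less. PDF2.1 was called lower in vtc1 than in Col 0 and in abi4-102, with every array below control level and no fold given. Its call against Col 0 was lost without Col 0 replicate 1 (log2 change -0.17) or 3 (-0.16) or vtc1 replicate 4 (-0.18), with a pseudocount of 16 (-0.07), with quantile normalization (-0.16) and with a replicate block (-0.18), and its call against abi4-102 under spike-in scaling (-0.14).

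**Figure D3:**
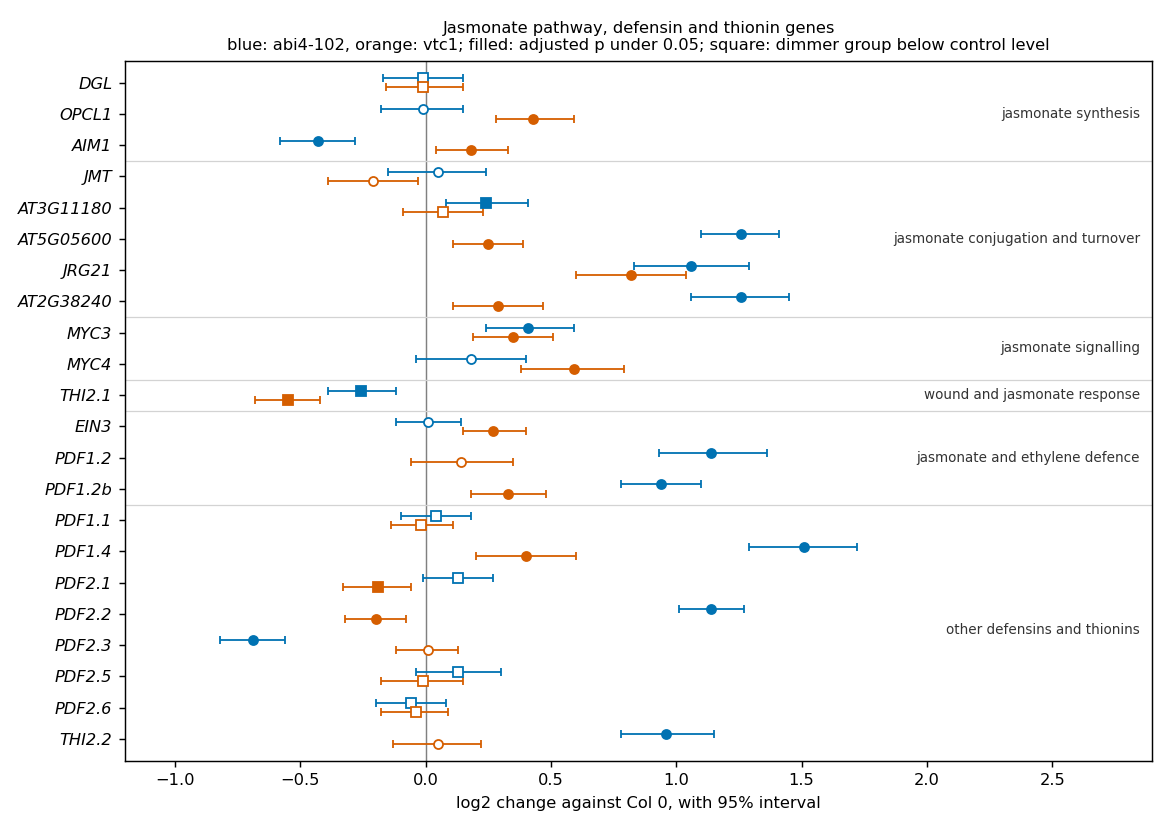
Log2 change against Col 0, with the 95% interval, of the 22 measured genes of the jasmonate, defensin and thionin lists, in abi4-102 (blue) and vtc1 (orange). Filled symbols passed the adjusted p threshold of 0.05, and squares mark comparisons in which the dimmer group lay below control level. PDF1.4 (1.51), AT5G05600 and AT2G38240 (1.26 each), PDF1.2 and PDF2.2 (1.14 each) lie farthest to the right in abi4-102, while in vtc1 JRG21 (0.82) does.

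The genes most like each of the 5 were found by the Pearson correlation of log2 values over the 10 arrays, which share the genotype differences, as a description. Nearest to PDF1.2 were AT2G43620 (r = 0.983), the bZIP factor BZIP61 (r = 0.975) and AT2G05790 (r = 0.974). AT2G43620 was at 53.2 ± 5.78 in Col 0, 92.1 ± 3.59 in abi4-102 and 60.4 ± 3.28 in vtc1. Nearest to PDF1.2b were AT1G26800 (r = 0.987), AT5G24610 (r = 0.981) and AT1G22750 (r = 0.979), of which AT1G26800 was at 132 ± 4.67, 288 ± 10.6 and 172 ± 10.2. No gene was among the 3 nearest to both PDF1.2 and PDF1.2b, which correlated with each other at r = 0.89. Lists this short do not show that their patterns differ. OPCL1 was followed most closely by BSMT1 (r = 0.980), a methyltransferase gene whose readings all lay below control level and are not a transcript level, by the beta-glucosidase gene BGLU40 (r = 0.978) and by the cytochrome P450 gene CYP71B23 (r = 0.973). CYP71B23 was at 125 ± 6.38 in Col 0, 131 ± 10.2 in abi4-102 and 218 ± 25 in vtc1. For the dim JMT the closest were NGA2 (r = 0.948), AT4G10580 (r = 0.941; an _x_at probe set above control level on 3 of 10 arrays) and AT2G37830 (r = 0.930). THI2.1 was left out of this search because no genotype lay above control level on all its arrays.

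**Figure D4:**
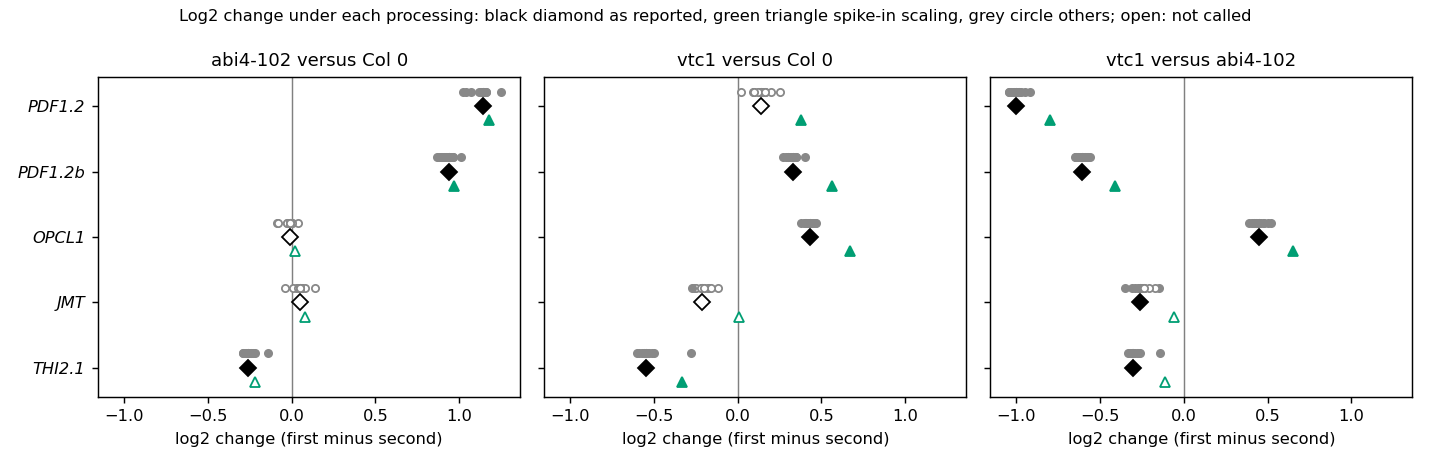
Log2 change of the 5 genes under each processing, by comparison. Black diamonds are the values as reported, green triangles the values with spike-in scaling and grey circles the other settings and the fits that leave out 1 array, with open symbols where the adjusted p was 0.05 or more. PDF1.2 stays between 1.02 and 1.25 in abi4-102 versus Col 0 and PDF1.2b between 0.87 and 1.01, all filled, while JMT in vtc1 spans -0.27 to 0.01.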

How the data were processed

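The authors deposited linear intensity values for 22810 probe sets on 10 arrays. Their probe summary and array scaling are not stated in the labels used here. After 64 control probe sets were set aside, values were taken as log2(value + 1) with no further normalization, so fold changes understate the change of dim probe sets. A linear model per probe set over all 10 arrays, with genotype as the only factor, was fitted with limma 3.58.1 in R 4.3.3 (lmFit, eBayes, both sides), and Benjamini-Hochberg adjustment ran over 22746 probe sets. Calls were made at an adjusted p under 0.05. Gene names came from the platform annotation, with symbols updated from a TAIR10.1 gene table: 13513 probe sets carried 1 gene (13436 matched the gene table), 503 several and 8730 none. No fold is given where the dimmer genotype lay below control level on all its arrays. Log2 changes printed or plotted for such probe sets describe readings and not transcript levels.

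The 5 genes and the 11 gene lists (102 genes, matched by locus code) were chosen with earlier results of these data known. From each list, up to 4 called genes with the largest change were named per comparison, and for each of the 5 genes the 3 most correlated ones. Alternatives were a pseudocount of 16, quantile normalization, subtraction of array medians, scaling on 18 hybridization spike-in probe sets, a filter on low values, fits of only the genotypes compared, an intensity trend, a replicate block, and each array left out in turn. The number of arrays limits the precision. Python 3.11.15, pandas 2.3.3 and matplotlib 3.10.9 were used for tables and plots.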

Additional observations from a re-analysis of the deposited data

How the results depend on the processing

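Of the counts of called probe sets and the changes of the 5 genes, 307 of the alternative values were labelled the same, and 14 were not. For a gene, the same meant its side of the threshold and any called direction. For a count it meant only a similar total, whatever its split by direction. Of the 14, all gene changes, 6 gained a call and 7 lost one. The other 1, JMT in vtc1 versus Col 0 under spike-in scaling, changed sign by more than its SE without a call. In abi4-102 versus Col 0, changes near 0 that were not called turned sign: OPCL1 to 0.02 under spike-in scaling and 0.04 without abi4-102 replicate 2, and JMT to -0.04 without abi4-102 replicate 2. Spike-in scaling gave PDF1.2 a called rise in vtc1 versus Col 0 (0.38), moved JMT there to 0.01, and ended the calls of THI2.1 in abi4-102 versus Col 0 (-0.22) and in vtc1 versus abi4-102 (-0.11) and of JMT in vtc1 versus abi4-102 (-0.06). Also under it, PDF2.1 (0.01), PDF2.2 (0.04), RCA (0.07) and PRK (0.02) turned from called falls in vtc1 versus Col 0 to changes above 0, not called. JMT in vtc1 versus Col 0 was called with array medians subtracted (-0.26) and in the fit of only those genotypes (-0.21). With 1 array left out it ranged from -0.27 to -0.16, and against abi4-102 from -0.35 to -0.17. The cause of these changes was not tested. THI2.1 gave no value under the filter on low values, which leaves 14557 probe sets. Called probe sets split into 4123 higher and 4204 lower in vtc1 versus Col 0 as deposited, 3399 and 5904 with array medians subtracted, and 9684 and 1240 under spike-in scaling. In vtc1 versus abi4-102 the split was 4054 and 4818 as deposited and 8192 and 1353 under spike-in scaling. Deviations of same-numbered arrays correlated at -0.0547 to 0.10, and an array correlated best with its own number in 8 of 18 comparisons. Between Col 0 and vtc1, same-numbered arrays correlated at 0.0871, 0.0439 and 0.1, and each of those arrays correlated best with its own number. Same-numbered pairs with abi4-102 correlated at -0.0547 to 0.0408. Whether replicate numbers mark a shared batch was not tested. With the replicate block the counts of called probe sets were 7414 in vtc1 versus Col 0, 7611 in abi4-102 versus Col 0 and 7971 in vtc1 versus abi4-102, and no call of the 5 genes changed. Among the other named genes the block ended the calls of AIM1 (0.16), PDF2.1 (-0.18), RCA (-0.17) and PRK (-0.21) in vtc1 versus Col 0. Signal near control level limits what can be said of JMT and THI2.1.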
